A study of Homo sapiens with 16 samples.

Results

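The 10 genes described here are growth factor and receptor genes of the EGF and VEGF systems: the EGF-family ligands HBEGF, AREG, EREG and TGFA, the ERBB receptors EGFR and ERBB3, the VEGF ligands VEGFA, VEGFB and VEGFC, and the VEGF co-receptor NRP1. They were chosen by name, as 10 of the 35052 genes to which the deposited transcripts were matched, and each gene's reads were summed over its annotated transcripts. All libraries came from wild-type K562 cells, an established human erythroleukaemia line that takes on features of megakaryocytes when given phorbol 12-myristate 13-acetate (PMA), an activator of protein kinase C. The cells received 25 nM PMA, total RNA was taken before PMA (0 h), early at 0.5, 1.5, 3 and 6 h, and late at 24, 48 and 72 h, and the medium was replaced after 24 and 48 h. RNA was depleted of ribosomal RNA before sequencing, and there were 2 libraries at each of the 8 time points, 16 in all. There was no vehicle-treated series, so time in culture and time in PMA cannot be told apart. The labels do not say whether the 2 libraries of a time point came from separate cultures, so p-values measure the spread between libraries, which may be technical.

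EGF-family ligands are made as membrane-anchored precursors, and metalloproteases such as ADAM17 cut them free. The released ligand binds ERBB receptors, which pair, phosphorylate each other and signal through RAS and MAP kinase; EGFR binds HBEGF, AREG, EREG and TGFA, whereas ERBB3 binds neuregulins and has little kinase activity of its own. VEGF ligands act on receptor kinases of endothelial cells, and neuropilin-1 presents VEGF-A to them and also binds class 3 semaphorins. Megakaryocytes and platelets are a known source of VEGF-A.

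AREG and HBEGF rose most among the ligands and peaked at the same time point, while EREG, which lies next to AREG on chromosome 4, was higher at 6 h only, and EGFR had no reads before PMA. Their promoter sequences are shown for that reason. Each is the stretch of 250 bases before the start site, 5′ to 3′ on the gene's own strand, from RefSeq (GRCh38.p14), with matches to the searched motifs in capitals.
AREG (chr4:74444886-74445135, plus strand): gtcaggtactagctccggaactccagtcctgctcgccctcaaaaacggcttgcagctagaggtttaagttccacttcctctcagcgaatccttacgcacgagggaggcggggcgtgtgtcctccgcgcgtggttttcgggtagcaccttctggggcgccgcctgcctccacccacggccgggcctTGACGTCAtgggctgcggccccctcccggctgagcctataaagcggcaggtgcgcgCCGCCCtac
HBEGF (chr5:140346604-140346853, minus strand): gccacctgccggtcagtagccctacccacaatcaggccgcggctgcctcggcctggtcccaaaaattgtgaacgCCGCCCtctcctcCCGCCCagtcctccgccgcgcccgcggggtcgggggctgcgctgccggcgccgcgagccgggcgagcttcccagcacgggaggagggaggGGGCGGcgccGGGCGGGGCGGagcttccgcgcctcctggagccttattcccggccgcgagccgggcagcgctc
EREG (chr4:74364895-74365144, plus strand): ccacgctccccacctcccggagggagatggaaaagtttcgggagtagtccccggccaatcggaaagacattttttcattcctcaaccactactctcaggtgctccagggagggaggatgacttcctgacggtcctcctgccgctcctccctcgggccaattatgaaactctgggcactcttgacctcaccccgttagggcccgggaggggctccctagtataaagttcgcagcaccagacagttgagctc
EGFR (chr7:55018767-55019016, plus strand): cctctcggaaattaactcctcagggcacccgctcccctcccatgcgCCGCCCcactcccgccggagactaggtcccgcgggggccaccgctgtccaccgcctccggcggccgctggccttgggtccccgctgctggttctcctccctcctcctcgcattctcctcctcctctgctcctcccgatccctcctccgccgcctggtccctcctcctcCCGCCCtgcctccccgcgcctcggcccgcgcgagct
The short motifs below were searched on both strands in windows of 300 bases, the 250 shown and 50 after the start. They were the AP-1 site TGANTCA, the cyclic AMP response element TGACGTCA, the EGR site GCGTGGGCG, the hypoxia response core ACGTG and the SP1 box GGGCGG. The AREG window held 1 full cyclic AMP response element, whose first base lies 65 bases before the start site, and 1.85% of the 35116 windows of this length hold that motif. HBEGF held 5 SP1 boxes, at 176, 163, 73, 63 and 58 bases before its start, the last pair overlapping by 1 base, and 45.0% of all windows hold at least 1. The EREG window had 1 match, a hypoxia response core after the start site, a motif found in 21.4% of windows. EGFR held 3 SP1 boxes, 2 of them in the letters shown, 204 and 36 bases before the start, and 1 after the start, outside those letters. A second RefSeq start of EGFR, with the window chr7:55109589-55109888, held 2 AP-1 sites, 232 and 136 bases before that start, and 7.71% of windows hold an AP-1 site. The EGR site, present in 0.795% of windows, was found in none of the 7 members with a window in the table, which are HBEGF, AREG, EREG, TGFA, EGFR, VEGFB and VEGFC. These matches describe the letters in the windows and say nothing on binding.

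The libraries held 27285773 to 54056289 estimated reads, and the 2 libraries of each time point correlated with r between 0.984 and 0.993 across genes. The 0 h replicate 2 library had the smallest gap between transcript length and effective length, 199 bases, where the other 7 libraries numbered 2 had 230 to 249 bases and those numbered 1 had 210 to 221 bases; its part in the results was not tested, and values without it are given where a call rests on it. Of 8 genes that mark K562 cells, all had reads, and their summed level was between 1561 and 1874 CPM (reads scaled to library size with TMM factors) at 0 h and 1187 to 1574 CPM at 72 h. It was lowest at 24 h, 988 to 1055 CPM, where 6 of the 8 were called lower and 1 higher. Among markers of other cell types, CD3E, MS4A1, KRT5, KRT14, COL3A1 and LUM stayed near 0, but the lists' sums, given here as levels, differed between 0 h and 72 h. The summed level of 5 fibroblast markers was 10.9 to 13.0 CPM at 0 h and 217 to 235 CPM at 72 h, where COL1A1 made up 196 and 218 CPM. The 5 epithelial markers summed to 246 to 289 CPM at 0 h and 1112 to 1133 CPM at 72 h, most of it KRT18 at both times; of the 3 tested, KRT18 was called higher at 72 h (2.34 on the log2 scale), and EPCAM (-1.33) and CDH1 (-0.88) were called lower. The sum of 4 endothelial markers was 0.921 to 1.42 CPM at 0 h and 17.8 to 18.5 CPM at 72 h, that of 5 lymphocyte markers 8.72 to 11.1 CPM and 18.5 to 18.8 CPM, and that of 5 monocyte or macrophage markers 77.5 to 78.9 CPM and 57.1 to 65.8 CPM. The 8 megakaryocyte markers summed to 60.7 to 70.5 CPM at 0 h, 258 to 265 CPM at 6 h and 5400 to 6209 CPM at 72 h, while GP9 and PF4 among them were at or near 0 in every library. THBS1 had the highest count of this list in any library, 176407 reads, followed by ITGB3 with 42185. No other gene of the list had more than 2133 reads in a library, so THBS1 and ITGB3 made up most of the 72 h sum. Of the 6 tested, 4 were called higher and 2 lower at 6 h, beside 27.8% and 29.4% of all genes. The same counts held at 24 h, beside 31.7% and 26.6%. At 72 h, 5 were higher and 0 lower, beside 31.7% and 26.9%. The part of these shifts in the late changes of EGFR, VEGFA and NRP1 was not tested. In these bulk samples, more cells expressing a gene and more RNA per cell cannot be told apart.

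Of the 10 genes, 8 passed the filter on low counts and were tested among 17559 genes. TGFA and VEGFC did not pass: TGFA had at most 2 reads and VEGFC at most 1 read in any library, against a detection floor of 3 reads, or 0.0623 to 0.128 CPM. Expressed per transcript length, as mean TPM (length-scaled transcript abundance, n = 2), VEGFA stood first at 0 h with 227 ± 23.4 TPM (SD), followed by VEGFB with 59.4 ± 3.52 and ERBB3 with 21.3 ± 1.96. AREG and EREG came next, at 6.49 ± 1.09 and 5.62 ± 0.37 TPM, a difference smaller than their spread, and NRP1 at 1.60 ± 0.22 and HBEGF at 0.814 ± 0.092 TPM were the lowest detected. At 6 h AREG led with 534 ± 23.5 TPM, ahead of VEGFA at 65.1 ± 2.72. HBEGF at 23.6 ± 3.42 TPM and VEGFB at 19.2 ± 2.03 TPM then differed by less than the sum of their SDs. At 72 h VEGFA was again the highest at 351 ± 24.7 TPM, and EGFR had reached 5.80 ± 0.29 TPM, above EREG at 3.96 ± 0.31.

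A gene was called changed when its edgeR quasi-likelihood p, adjusted over the 17559 genes by the Benjamini-Hochberg method, was below 0.05. At 0.5 h, edgeR called 0 of the 8 genes against 0 h, where 0.165% of all genes were called higher and 0.0057% lower; 2 of the 8, AREG and EREG, had an unadjusted p under 0.05, and DESeq2 also called 0. Without the 0 h replicate 1 library AREG was called at 0.5 h, with a log2 change of 0.54 and an adjusted p of 0.0215, but that fit called 3585 of 18033 genes, against 30 of 17559 with all libraries. At 1.5 h, 2 genes were higher and 0 lower, with 9.05% and 8.05% of all genes called in those directions. The 3003 genes called at 1.5 h became 5008 when replicate 1 of 0 h was left out and 1006 when replicate 2 of 0 h was. Leaving out the first or the second library of 1.5 h gave 1217 or 1061 genes, and 2 of the 8 were called in each of these 4 fits. At 3 h, 4 were higher and 2 lower, beside 21.5% and 20.5% of all genes. All 8 were called at 6 h, 5 higher and 3 lower, where 27.8% of genes were higher and 29.4% lower. At 24 h there were again 5 higher and 3 lower, beside 31.7% and 26.6%. At 48 h, 5 were higher and 2 lower, with 30.2% and 24.1% of all genes. The split at 72 h was also 5 higher and 2 lower, with 31.7% and 26.9%. The median log2 change of the 8 genes was 2.34 at 6 h and 1.25 at 72 h, where the medians of all genes were 0.001 and -0.032. These contrasts share the 0 h libraries and are not independent of each other. EGFR had no reads at 0 h, passed the filter only through later libraries, and could only be called higher. It is among the genes counted as higher from 3 h on, at 3 h on few reads, and is in both medians.

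Between neighbouring time points, 3 genes rose from 0.5 to 1.5 h and 0 fell, with 4.11% of all genes called higher and 1.67% lower. From 1.5 to 3 h 3 rose and 2 fell, beside 13.0% and 12.1% of all genes. From 3 to 6 h all 8 changed, 5 up and 3 down, beside 19.0% and 22.1%. From 6 to 24 h 4 rose and 3 fell, beside 30.8% and 25.8%. From 24 to 48 h 2 rose and 2 fell, where 8.88% of genes were called higher and 6.12% lower. From 48 to 72 h edgeR called 0 of the 8, with 1.14% and 0.325% of all genes called; 3 had an unadjusted p under 0.05 and DESeq2 also called 0. Over the whole series each of the 8 genes changed at some time, as did 82.9% of all genes tested. These shares also rest on single libraries: leaving out 1 library took the genes called from 1014 to as few as 427 for 0.5 to 1.5 h, from 4408 to 2817 for 1.5 to 3 h, from 2633 to 1115 for 24 to 48 h and from 258 to 37 for 48 to 72 h. The libraries in question were 1.5 h replicate 1, 1.5 h replicate 2, 24 h replicate 2 and 48 h replicate 2, in that order.

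HBEGF encodes heparin-binding EGF-like growth factor, a ligand of EGFR and ERBB4 (GRCh38 chromosome 5, 140332843 to 140346631, minus strand). Its 2 libraries held 0.890 and 1.35 CPM at 0 h and 1.24 and 1.20 CPM at 0.5 h. They then held 5.74 and 5.29 CPM at 1.5 h, 30.8 and 21.3 CPM at 3 h, and 43.1 and 39.6 CPM at 6 h. The late libraries held 16.2 and 16.6 CPM at 24 h, 13.1 and 13.1 CPM at 48 h, and 16.7 and 14.6 CPM at 72 h. Every library from 1.5 h on was above every library of 0 and 0.5 h, and both 6 h libraries were above all others. Against 0 h, the log2 change of HBEGF was 2.30 (SE 0.22, adjusted p 1.25e-05) at 1.5 h and 4.54 (SE 0.21) at 3 h. It reached 5.20 (SE 0.21, adjusted p 1.59e-10) at 6 h, a 36.9-fold rise. HBEGF then fell by 1.33 on the log2 scale from 6 to 24 h (SE 0.17, adjusted p 1.42e-05) and was still 3.80 above 0 h at 72 h (SE 0.21). The step from 3 to 6 h, 0.66 (SE 0.16, adjusted p 0.00475), rested on the 3 h replicate 2 library, without which it was 0.42 with an adjusted p of 0.0524. Nearly all HBEGF reads were assigned to the full coding transcript HBEGF-201, at 98.3% at 0 h. At 0.5 h, when the gene total had not changed, the retained-intron transcript HBEGF-202 held 6 of the reads in replicate 1 and 5 in replicate 2, or 12.3% of the mean, against 0 reads in both 0 h libraries.

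AREG encodes amphiregulin, a ligand of EGFR alone among the ERBB receptors (chromosome 4, 74445134 to 74455009, plus strand). It held 4.76 and 4.18 CPM at 0 h, 5.92 and 6.22 CPM at 0.5 h, and 15.2 and 15.7 CPM at 1.5 h. It held 130 and 122 CPM at 3 h and 445 and 464 CPM at 6 h. At 24 h AREG was down to 61.6 and 69.3 CPM, at 48 h to 21.1 and 21.6 CPM, and at 72 h to 18.4 and 16.3 CPM. The 2 libraries of each time point lay close together, and those of 72 h were still above those of 1.5 h. Against 0 h the log2 change was 1.79 (SE 0.11, adjusted p 1.52e-07) at 1.5 h and 4.81 (SE 0.11) at 3 h. The change of AREG at 6 h was 6.67 (SE 0.12, adjusted p 3.10e-13), a 101.5-fold rise. Unlike HBEGF, which did not pass the test from 24 to 48 h (-0.33, SE 0.17, adjusted p 0.216), AREG fell in both later steps. It fell by 2.79 from 6 to 24 h (SE 0.10) and by 1.62 from 24 to 48 h (SE 0.09, adjusted p 1.86e-07), and was 1.95 above 0 h at 72 h (SE 0.11). The difference between the genes was not tested. AREG-201, the coding transcript of 6 exons, held 93.0% to 98.8% of AREG reads at every time point. The retained-intron share of AREG reads was 1.20% ± 0.50 (SD, n = 2) at 0 h and 6.97% ± 0.36 at 1.5 h, then 2.75% ± 0.43 at 6 h.

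EREG encodes epiregulin, a ligand of EGFR and ERBB4 (chromosome 4, 74365143 to 74388751, plus strand). Its level was 12.2 and 11.4 CPM at 0 h, 14.2 and 14.9 CPM at 0.5 h, 12.2 and 12.6 CPM at 1.5 h, and 12.3 and 13.1 CPM at 3 h. It was 31.5 and 28.0 CPM at 6 h, then 10.5 and 8.84 CPM at 24 h, 7.71 and 8.53 CPM at 48 h, and 7.75 and 7.62 CPM at 72 h. The 6 h libraries stood above all others, and those of 48 and 72 h below all libraries of 0 to 3 h. EREG rose by 1.33 on the log2 scale at 6 h (SE 0.12, adjusted p 4.04e-07) and fell by 1.63 from 6 to 24 h (SE 0.12, adjusted p 1.25e-07). Against 0 h it fell by 0.54 at 48 h (SE 0.12, adjusted p 0.00188) and by 0.62 at 72 h (SE 0.12, adjusted p 6.08e-04). The call at 24 h, -0.30 (SE 0.12, adjusted p 0.0492), was lost in 22 of 28 alternatives, among them leaving out any library but 24 h replicate 1 (adjusted p 0.0502 to 0.282), while removing a GC trend gave -0.61 (adjusted p 0.00247). At 1.5 and 3 h, when AREG was already higher, EREG had log2 changes of 0.07 and 0.10 and was not called. TGFA, which encodes transforming growth factor alpha, stayed at or below 2 reads in every library, and no fold is given for it.

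**Figure D1:**
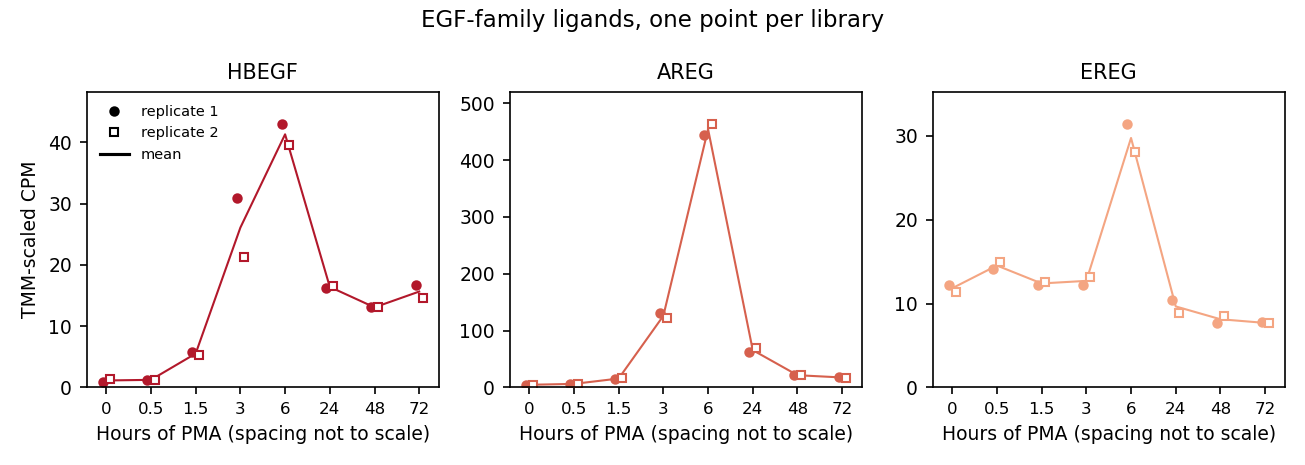
TMM-scaled CPM of HBEGF, AREG and EREG (vertical axes, linear, each from 0) at the 8 time points in hours of PMA (horizontal axis, evenly spaced and not to scale), with a filled circle for replicate 1, an open square for replicate 2 and a line through their means. All 3 are highest at 6 h; HBEGF stays above its 0 h values at 72 h (16.7 and 14.6 CPM), while EREG ends below them (7.75 and 7.62 CPM).

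EGFR encodes the receptor of the ligands above (chromosome 7, 55019021 to 55211628, plus strand). No EGFR read was seen in the 0 h and 0.5 h libraries, 0 and 1 were seen after 1.5 h, and the 3 h libraries held 2 and 4. The 6 h libraries held 12 and 21 reads, those of 24 h 137 and 196, those of 48 h 331 and 386, and those of 72 h 585 and 511. The level of EGFR at 72 h was 16.3 and 15.96 CPM, above that of every earlier library. Because no read was seen at 0 h, a fold is a lower bound against the floor of 3 reads per library: at least 6.50-fold higher at 6 h (adjusted p 9.55e-06) and at least 44.0-fold higher after 24 h, with bounds of 108-fold for the 48 h libraries and 167-fold for those of 72 h (adjusted p 2.03e-09). The call at 3 h (adjusted p 0.0144) rested on 6 reads and was lost without 3 h replicate 2 (adjusted p 0.105), without 0 h replicate 1 (0.0732), without 0 h replicate 2 (0.0783) and with length-scaled counts (0.0545). EGFR rose by 2.73 on the log2 scale from 6 to 24 h (SE 0.27, adjusted p 5.00e-06) and by 1.30 from 24 to 48 h (SE 0.21, adjusted p 0.00178). The step from 48 to 72 h was 0.63 (SE 0.21, adjusted p 0.214) and was not called, though both 72 h libraries were above both 48 h libraries. EGFR was highest at the time points at which its ligands AREG and HBEGF were below their own peaks. From 24 h on, EGFR reads were assigned mainly to EGFR-201 and EGFR-211. The full transcript EGFR-201 held 55.1% at 24 h and 42.3% at 72 h. EGFR-211, whose start lies 133236 bases downstream, held 42.4% and 51.4%. Since 99.8% of the bases of EGFR-211 lie in EGFR-201, the split is an estimate, and it was not tested. The share of EGFR-211 was 40.09% and 61.05% in the 48 h libraries. An antisense gene, EGFR-AS1, overlaps EGFR, and the sources used here do not say whether strand was used in counting.

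ERBB3 encodes the neuregulin receptor (chromosome 12, 56076799 to 56103505, plus strand). It held 28.3 and 31.8 CPM at 0 h, 30.0 and 29.8 CPM at 0.5 h, 24.1 and 27.2 CPM at 1.5 h, and 18.0 and 17.0 CPM at 3 h. The 6 h libraries were the lowest at 6.74 and 6.69 CPM, after which ERBB3 held 16.8 and 18.2 CPM at 24 h, 21.4 and 21.1 CPM at 48 h, and 24.5 and 23.2 CPM at 72 h. The dip at 6 h fell at the time point at which the ligands peaked, and by 72 h both libraries were still below both 0 h libraries. Against 0 h ERBB3 fell by 0.78 at 3 h (SE 0.10, adjusted p 3.22e-05) and by 2.16 at 6 h (SE 0.11, adjusted p 1.27e-09), and it rose by 1.38 from 6 to 24 h (SE 0.11, adjusted p 2.10e-07). At 72 h ERBB3 fell by 0.33 (SE 0.10, adjusted p 0.0110), a call lost without 0 h replicate 2 (adjusted p 0.0914), without 72 h replicate 2 (0.0541), with length-scaled counts (0.0695), with no low-count filter (0.0751) and with only the libraries compared (0.122). The fall at 48 h, -0.50 (SE 0.10, adjusted p 7.88e-04), was lost with length-scaled counts alone (adjusted p 0.0541).

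By estimated reads, the fall of ERBB3 at 6 h differed between its transcripts, and no test was run on this. Several transcripts can share a read, so its assignment is an estimate. ERBB3-203 has 97.1% of its bases in ERBB3-201, and it was listed at 181.7 and 0 reads in the 0.5 h libraries. ERBB3-201, the reference transcript of 28 exons and 5919 bases, held 42.8% of ERBB3 reads at 0 h and was listed at 0 reads in both 6 h libraries, then held 43.2% at 24 h. Together with ERBB3-203, the other near full-length transcript, it took 61.9% and 58.4% of the reads in the 0 h libraries and 22.1% and 19.7% in those of 6 h. In CPM this near full-length class went from 18.0 ± 0.77 at 0 h to 1.40 ± 0.12 at 6 h (SD, n = 2). All other ERBB3 transcripts together went from 12.0 ± 1.74 to 5.32 ± 0.10 CPM. Among them, ERBB3-202, which ends after 3 exons, had 7.34% of the reads at 0 h and 32.7% at 6 h, and ERBB3-213, which begins 18390 bases downstream, 25.2% and 40.7%. Counts scaled by transcript length gave a smaller log2 change at 6 h, -1.21 (SE 0.14, adjusted p 4.02e-06), and a larger one at 1.5 h, -0.73 (SE 0.14, adjusted p 0.00333), where read counts gave -0.23 and no call (adjusted p 0.130). With the same scaling the steps were -0.54 (adjusted p 0.0365) from 0.5 to 1.5 h, where read counts gave -0.22 and no call, -0.11 (adjusted p 0.664) from 1.5 to 3 h, where read counts gave -0.55, and -0.37 (adjusted p 0.0550) from 3 to 6 h, where read counts gave -1.38. The rise from 6 to 24 h was 0.37 (adjusted p 0.0411) on that scale. From 24 to 48 h it was 0.50 (adjusted p 0.0325), where read counts gave 0.28 and no call in the main fit. In some alternatives read counts called that rise too: total-count scaling (0.36, adjusted p 0.0145), GC trend removed (0.29, 0.0108) and only the libraries compared (0.30, 0.0396). Read counts also called the step from 0.5 to 1.5 h with the GC trend removed (-0.25, adjusted p 0.0421). They called 1.5 h against 0 h with total-count scaling (-0.32, adjusted p 0.0218). The time at which most of the ERBB3 fall came thus depended on the scaling: by 1.5 h with length-scaled counts, and from 3 to 6 h with read counts. A coding gene on the same strand, AC034102.2, overlaps ERBB3, so reads of the shared part may be divided between them.

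**Figure D2:**
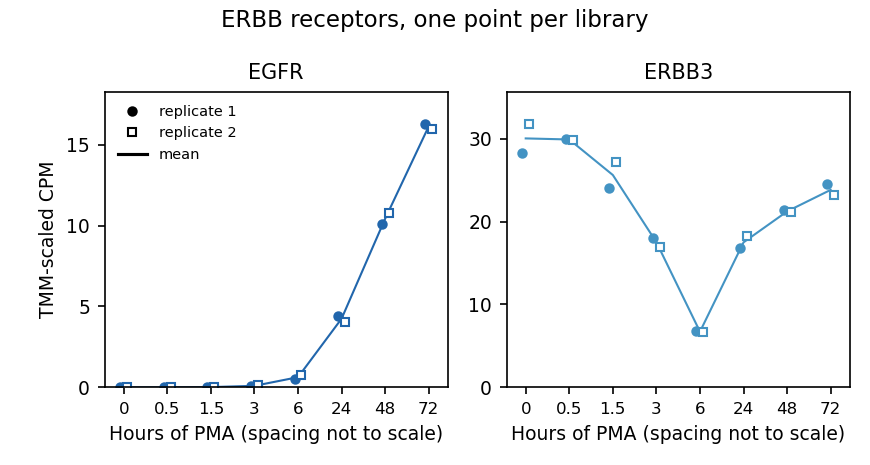
TMM-scaled CPM of EGFR and ERBB3 (linear axes from 0) by hours of PMA (evenly spaced, not to scale), with 1 point per library and a line through the means. EGFR goes from no reads at 0 h to 16.3 and 15.96 CPM at 72 h, and ERBB3 has its lowest values, 6.74 and 6.69 CPM, at 6 h.

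VEGFA encodes the main VEGF ligand (chromosome 6, 43770184 to 43786487, plus strand). It held 372 and 465 CPM at 0 h, 392 and 361 CPM at 0.5 h, and 386 and 385 CPM at 1.5 h. It held 229 and 196 CPM at 3 h and 138 and 144 CPM at 6 h, then 564 and 572 CPM at 24 h, 643 and 675 CPM at 48 h, and 608 and 609 CPM at 72 h. The 6 h libraries were below all others, and each library from 24 h on was above every earlier library. VEGFA fell by 0.98 at 3 h (SE 0.11, adjusted p 8.74e-06) and by 1.57 at 6 h (SE 0.11, adjusted p 3.97e-08) on the log2 scale. From 6 to 24 h VEGFA rose by 2.01 (SE 0.11, adjusted p 1.05e-08), a 4.02-fold change. Against 0 h it was higher by 0.44 at 24 h (SE 0.11, adjusted p 0.00342), 0.66 at 48 h (SE 0.11, adjusted p 1.72e-04) and 0.54 at 72 h (SE 0.11, adjusted p 7.42e-04). Scaling by total counts lowers every gene against 0 h by 0.25 at 24 h and 0.37 at 6 h on the log2 scale, and under it VEGFA at 24 h was 0.20 (adjusted p 0.0661), while the rises at 48 h (0.49) and 72 h (0.39) kept their call. With only the libraries compared, the 24 h change was 0.40 (adjusted p 0.0579).

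VEGFA is spliced into forms that differ in whether they bind heparan sulfate and neuropilin-1. The coding exon that the transcript VEGFA-205 holds and VEGFA-206 leaves out, exon 6 of the 7 in VEGFA-205, has 132 bases and helps that binding, and is shown because the split of reads turns on it (GENCODE, GRCh38, chr6:43781956-43782087, plus strand, all in lower case).
VEGFA exon: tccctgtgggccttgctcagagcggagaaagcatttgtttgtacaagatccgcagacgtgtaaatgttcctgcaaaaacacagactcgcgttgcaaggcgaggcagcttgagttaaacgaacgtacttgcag
Of the 20 coding transcripts that span it, 16 hold the exon and 4 do not. The 16 took 81.1% and 84.8% of the estimated reads of this class in the 0 h libraries and 82.0% and 88.9% in those of 3 h. The 0.5 h libraries had 79.3% and 80.7%. The share of the 16 was 78.6% and 77.9% after 6 h, 77.2% and 81.5% after 24 h, 75.0% and 77.3% after 48 h, and 72.9% and 77.9% in the 72 h libraries. All 4 libraries of 48 and 72 h were below both 0 h libraries, as were those of 0.5 and 6 h, whereas 1 of the 24 h libraries was not; no test was run on the shares, which are estimates of reads that several transcripts can share. In CPM, transcripts with the exon went from 243 ± 46.5 at 0 h to 321 ± 4.53 at 72 h (SD, n = 2), and those without it from 49.2 ± 0.26 to 105 ± 21.3. Retained-intron transcripts held 30.1% ± 0.20 of VEGFA reads at 0 h and 34.8% ± 2.71 at 6 h. An antisense gene, AL136131.3, overlaps VEGFA.

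VEGFB encodes a VEGF ligand that binds FLT1 and neuropilin-1 (chromosome 11, 64234538 to 64238793, plus strand). It held 28.2 and 38.1 CPM at 0 h, 26.4 and 29.8 CPM at 0.5 h, 25.8 and 32.1 CPM at 1.5 h, and 30.7 and 26.2 CPM at 3 h. It held 10.4 and 12.6 CPM at 6 h, 17.2 and 18.3 CPM at 24 h, 25.9 and 28.8 CPM at 48 h, and 26.5 and 30.7 CPM at 72 h. The libraries of 6 and 24 h were below all others, which overlapped each other. VEGFB fell by 1.52 at 6 h (SE 0.17, adjusted p 3.15e-06) and by 0.90 at 24 h (SE 0.16, adjusted p 3.13e-04) against 0 h. At 48 and 72 h it had changes of -0.28 (SE 0.16, adjusted p 0.159) and -0.21 (SE 0.16, adjusted p 0.269) and was not called. Without 0 h replicate 1, the lower of the 0 h values, these were -0.48 (adjusted p 0.0280) and -0.41 (adjusted p 0.0488). The return began with a rise of 0.62 from 6 to 24 h (SE 0.17, adjusted p 0.00689) and went on with 0.62 from 24 to 48 h (SE 0.16, adjusted p 0.0195). The earlier rise was lost without 6 h replicate 1 (adjusted p 0.0726) or 24 h replicate 2 (0.0521) and was 0.31 with a GC trend removed, and the later rise was lost when any library of 24 or 48 h was left out (adjusted p 0.0585 to 0.139). VEGFB thus shared with VEGFA the low at 6 h but was not called higher than 0 h at any time. VEGFC, a ligand active on lymphatic endothelium, had at most 1 read in a library.

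NRP1 encodes neuropilin-1, which has no kinase domain (chromosome 10, 33177492 to 33336262, minus strand). It held 3.53 and 3.35 CPM at 0 h, 2.72 and 3.18 CPM at 0.5 h, 3.81 and 4.43 CPM at 1.5 h, and 11.5 and 12.3 CPM at 3 h. It held 34.1 and 35.7 CPM at 6 h, 35.0 and 37.1 CPM at 24 h, 24.6 and 26.995 CPM at 48 h, and 36.2 and 32.8 CPM at 72 h. Libraries from 3 h on were above all earlier ones, and the 48 h libraries were below those of 6, 24 and 72 h. NRP1 rose by 1.79 at 3 h (SE 0.13, adjusted p 8.82e-08), by 3.34 at 6 h (SE 0.13, adjusted p 7.27e-11) and by 3.33 at 72 h (SE 0.13, adjusted p 5.54e-11), the last a 10.0-fold change. From 6 to 24 h NRP1, alone of the 8 tested genes, was not called (0.05, SE 0.11, adjusted p 0.729). It fell by 0.48 from 24 to 48 h (SE 0.11, adjusted p 0.00907), a call lost without 48 h replicate 1 (adjusted p 0.112), without 24 h replicate 2 (0.135) and with length-scaled counts (0.213). The step from 0.5 to 1.5 h, 0.48 (SE 0.13, adjusted p 0.0490), was lost in 22 of 28 alternatives (adjusted p up to 0.446 without 0.5 h replicate 1). It was kept when either 72 h library was left out and lost without each of the other 14 libraries.

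NRP1 transcripts that end before the last exon of NRP1-201 lack the sequence of the cytoplasmic tail, and some code for secreted forms. There are 9 such transcripts, which took 70.3% and 77.3% of NRP1 reads in the 0 h libraries, 44.4% and 56.0% at 3 h, and 39.2% and 36.5% at 6 h. At 72 h they took 44.6% and 49.4%. Every library from 3 h on had a lower share than every library of 0 to 1.5 h. In CPM, transcripts with the last exon held 0.905 ± 0.205 before PMA, 21.7 ± 1.41 after 6 h and 18.3 ± 2.46 after 72 h (SD, n = 2). Those without it held 2.54 ± 0.07, 13.2 ± 0.24 and 16.2 ± 0.05 CPM at the same times. Within the short class the make-up differed with time: NRP1-212 and NRP1-202 held 33.9% and 27.6% of all NRP1 reads at 0 h but 7.96% and 4.81% at 72 h, while NRP1-204, of 12 exons, went from 11.8% at 0 h to 31.1% at 24 h. At 0 h these shares rest on 115 and 104 reads in all. All shares here are estimates of reads that several transcripts can share, and no test was run on them. AL121748.2, an antisense gene, and RN7SL398P overlap NRP1.

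**Figure D3:**
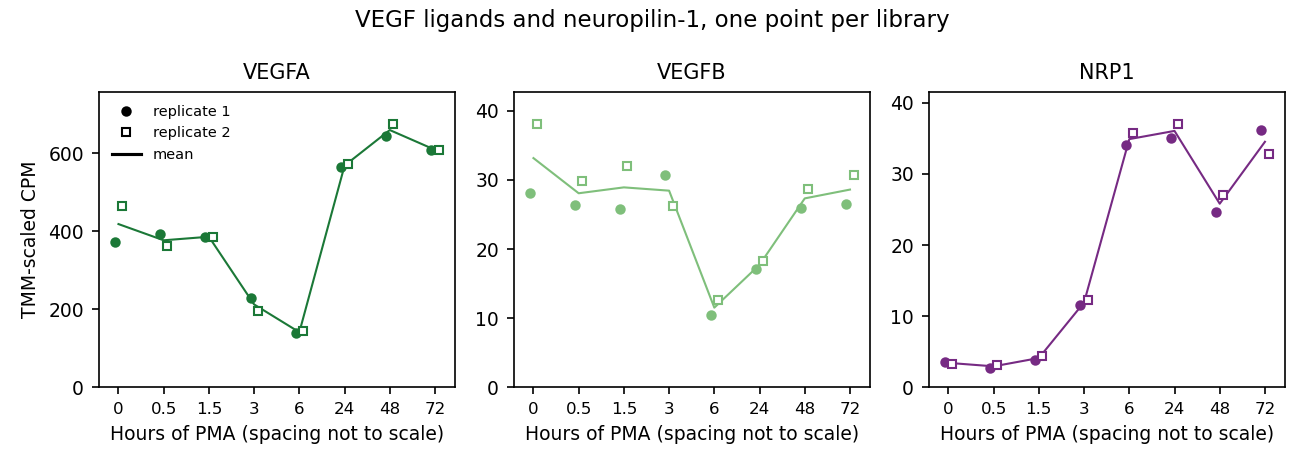
TMM-scaled CPM of VEGFA, VEGFB and NRP1 (linear axes from 0) by hours of PMA (evenly spaced, not to scale), with 1 point per library and a line through the means. VEGFA and VEGFB are lowest at 6 h (138 and 144 CPM, and 10.4 and 12.6 CPM), when NRP1 has reached 34.1 and 35.7 CPM.

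**Figure D4:**
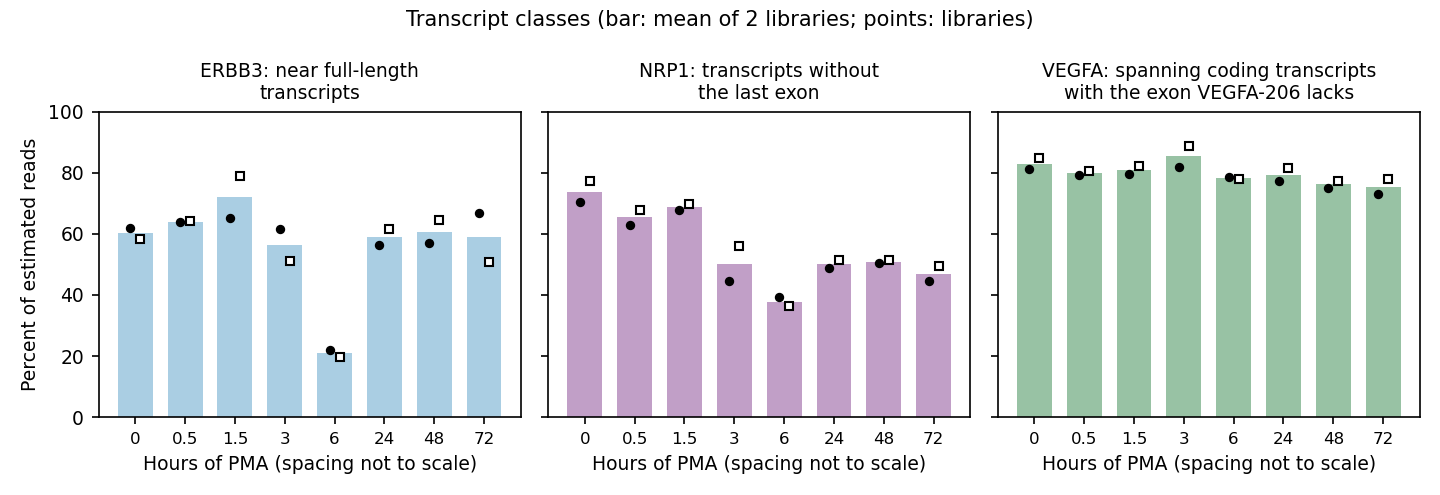
Share of estimated reads (vertical axis, percent, 0 to 100) held by a class of transcripts in ERBB3, NRP1 and VEGFA at each time point, with bars for the mean of 2 libraries and points for the libraries. The near full-length class of ERBB3 is lowest at 22.1% and 19.7% at 6 h, and the short class of NRP1 goes from 70.3% and 77.3% at 0 h to 39.2% and 36.5% at 6 h.

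Genes that act around the 10 were taken from 9 lists with 62 genes, of which 51 were tested. Of these 51, 19 were higher and 9 lower at 6 h, and 23 were higher and 12 lower at 72 h, with median log2 changes of 0.25 and 0.30. Among all tested genes, the 6 h shares were 27.8% higher and 29.4% lower and the 72 h shares 31.7% and 26.9%, and the counts of each list below stand beside these same shares. Other EGF-family ligands except EGF were scarce, with at most 30 reads in any library (NRG4), and BTC had 0 reads in every library. Of 4 tested ligands in the list of 7, none was called at 6 h. At 72 h EGF was higher (0.82, SE 0.24, adjusted p 0.00869) and NRG3 lower (-1.65, SE 0.69, adjusted p 0.0497). EGF, the founding ligand, held 4.54 and 4.31 CPM at 0 h and 9.36 and 6.25 CPM at 72 h. NRG1, a ligand of ERBB3, was at 0.522 and 0.451 CPM at 0 h and fell by 2.02 at 24 h (SE 0.68, adjusted p 0.01945). The calls of NRG3 and NRG1 rest on few reads, at most 13 and 17 in any library. ERBB4 had at most 1 read. ERBB2, the co-receptor of ERBB3, fell by 1.08 at 6 h (SE 0.14, adjusted p 1.48e-05) and by 0.54 at 72 h (SE 0.14, adjusted p 0.00356), from 14.6 and 15.5 CPM at 0 h.

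Of 8 genes of ligand shedding, 4 were higher and none lower at 6 h, where 27.8% and 29.4% of all genes were, and 5 were higher and 1 lower at 72 h, beside 31.7% and 26.9%. ADAM10, a sheddase and the highest of the list in CPM, rose by 0.90 at 72 h (SE 0.14, adjusted p 9.22e-05). ADAM12, also a metalloprotease, went from 0 and 1 reads at 0 h to 360 and 297 reads at 72 h (adjusted p 9.53e-09). ADAM17, the main sheddase of AREG and HBEGF, and TIMP3, an inhibitor of it, are named after their values were seen. ADAM17 held 117 and 109 CPM at 0 h, rose by 1.15 at 3 h (SE 0.09, adjusted p 2.31e-07) and by 1.07 at 6 h (SE 0.09), and had a log2 change of 0.17 at 24 h (SE 0.09, adjusted p 0.117). TIMP3 rose later, from 0.890 and 0.802 CPM at 0 h to 96.0 and 105.7 CPM at 24 h, a log2 change of 6.89 (SE 0.12). Of the 8 genes of receptor feedback and turnover, 7 were tested; 5 were higher and 2 lower at 6 h, and 5 were higher and 1 lower at 72 h. ERRFI1, an inhibitor of EGFR kinase, held 1.53 and 1.19 CPM at 0 h and 135 and 135 CPM at 6 h, a log2 change of 6.62 (SE 0.16, adjusted p 1.15e-12), and was 5.20 above 0 h at 72 h (SE 0.15). CBL, a ubiquitin ligase that sends EGFR to degradation, rose by 2.55 at 6 h (SE 0.10) and was 1.44 above 0 h at 72 h (SE 0.10). Among 6 adaptor genes, 3 were higher and 1 lower at 6 h, and 1 was higher and 2 lower at 72 h. SHC1, which links receptors to RAS, rose by 1.26 at 72 h (SE 0.09), while PTPN11, a phosphatase of the same pathway, fell by 0.26 (SE 0.10).

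Of the 3 VEGF receptor genes, 2 were tested, FLT1 and FLT4, and FLT1 alone was called at 6 and 72 h, as higher. At 24 h, 1 of the 2 was called higher and 1 lower, beside 31.7% and 26.6% of all genes. The split was the same at 48 h, beside 30.2% and 24.1%. FLT1, the receptor of VEGF-A and VEGF-B, held 2.30 and 2.74 CPM at 0 h, 10.1 and 12.5 CPM at 6 h, and 68.6 and 62.4 CPM at 72 h, a rise of 4.70 on the log2 scale (SE 0.16, adjusted p 1.47e-11). KDR, the other main receptor of VEGF-A, had at most 7 reads. PGF, a ligand of FLT1, was not called at any time against 0 h (0.03, SE 0.25, at 72 h), and VEGFD had at most 5 reads. Among the 13 neuropilin partners, 11 were tested; 2 were higher and 3 lower at 6 h, and 7 were higher and 2 lower at 72 h. NRP2, the second neuropilin, held 2.09 and 2.61 CPM at 0 h and 18.8 and 19.1 CPM at 72 h, a rise of 3.01 (SE 0.24, adjusted p 1.18e-07), and at 6 h, when NRP1 was already high, its log2 change was 0.16 (SE 0.25). PLXNA1, the semaphorin co-receptor highest in CPM in the list, rose by 0.73 at 72 h (SE 0.12). Of the 13 hypoxia genes, 11 were tested; 4 were higher and 2 lower at 6 h, and 3 were higher and 4 lower at 72 h. NDRG1 rose by 4.95 at 72 h (SE 0.16) and by 2.97 at 6 h (SE 0.16), the time of the VEGFA low. VHL, which marks hypoxia-inducible factors for degradation, fell by 1.18 at 6 h (SE 0.10) and by 1.27 at 72 h (SE 0.10). CA9 and ADM, both hypoxia targets, had at most 8 and 6 reads.

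**Figure D5:**
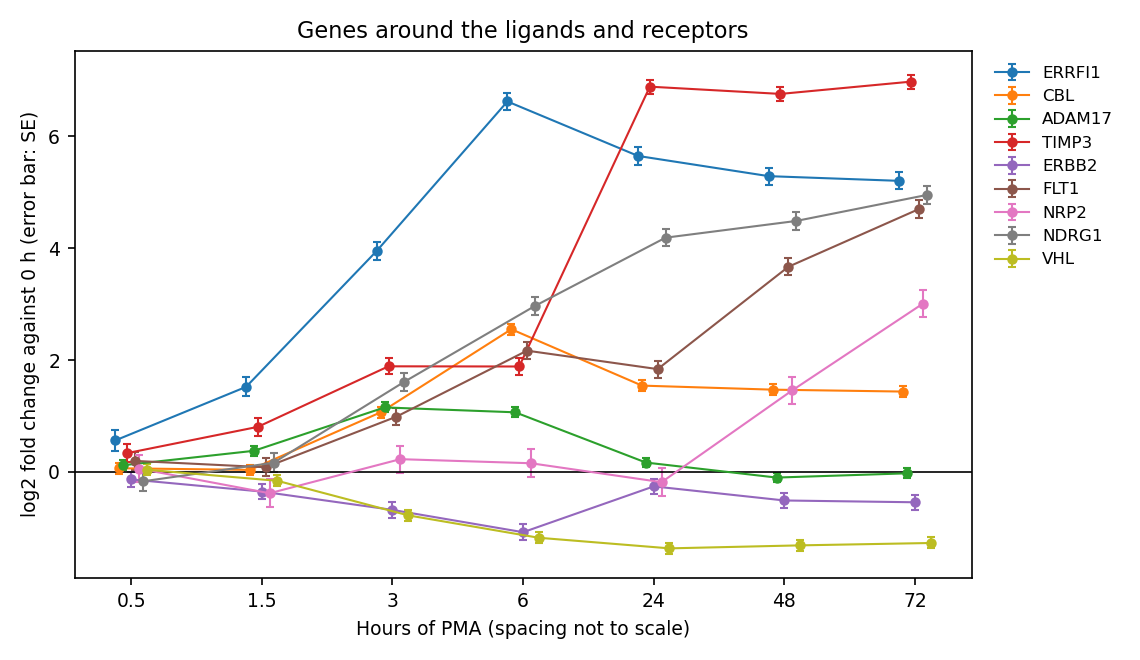
Log2 fold change against 0 h (vertical axis, edgeR, error bars SE) of 9 genes around the ligands and receptors by hours of PMA (horizontal axis, evenly spaced, not to scale). ERRFI1 is highest at 6 h (6.62), as are AREG and HBEGF (not drawn here), whereas FLT1 and NRP2 reach their highest values, 4.70 and 3.01, at 72 h.

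The genes whose log2 CPM followed each of the 8 most closely over the 16 libraries were taken from the genes whose mean was 5 CPM or more (11268 for most members). For HBEGF the genes at the head of the order were JMJD6 and SQSTM1 (Pearson r 0.994 and 0.993), and for AREG STX3, PI4KB and STAU1 (0.977 to 0.982). EREG was most like GCLC, RCAN1 and ZYG11A (0.961 to 0.976). EGFR was most like SLC44A1, VEPH1 and STC1 (0.995 to 0.996), and ERBB3 like NSMCE4A, FAXDC2 and SLC39A14 (0.984 to 0.987). VEGFA was most like GDE1, SMARCAL1 and XPC (0.980 to 0.982), VEGFB like PLCB2, BST2 and NFATC2 (0.959 to 0.972), and NRP1 like NRIP3, SHC4 and SQLE (0.991 to 0.994). These values describe the likeness of time courses in the same libraries and are the highest of many.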

How the data were processed

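Total RNA of 16 libraries was sequenced, and the authors deposited a transcript table per library with estimated counts and TPM, in the column layout of Salmon per the file headers; Trim Galore 0.4.3 and Salmon stand in the submitters' processing notes, and hg19 and hg38 are listed there with no role. Transcript length and effective length, other values in the deposited tables, were used for checks. Of 177456 transcripts, 167027 (94.1%) matched the GENCODE annotation by ID and were summed to 35052 genes; the rest held 3.01% to 3.75% of reads. Sums were rounded and fitted in edgeR 4.0.16 (R 4.3.3): TMM scaling, filterByExpr, a quasi-likelihood fit over all 16 libraries with 1 mean per time point, and Benjamini-Hochberg adjustment over 17559 genes at 0.05. CPM are TMM-scaled, and depth was 27285773 to 54056289 estimated reads per library. Floors cover counting error only, whereas each SE comes from the quasi-likelihood fit and includes the spread between libraries. TPM were summed over transcripts. The members and all lists were chosen with earlier results of these data known. Named genes are the 10 members, the gene with the highest mean CPM and the called gene with the largest change of each list, and the 3 genes most like each member. The fit was tested on simulated data. Alternatives were other scalings, filters, DESeq2 1.42.0, length-scaled counts, GC correction, a replicate block, another gene map and leaving out each library. Promoter letters are from RefSeq. Of the genes that the naming rule selects for likeness to a member, 1 is not reported here.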

Additional observations from a re-analysis of the deposited data

How the results depend on the processing

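Of 104 member contrasts, 65 were called, and all 1811 values of these under the 12 other settings and the 16 fits that each left out a library had the same direction; 71 of them, spread over 12 contrasts, were no longer called, and 53 contrasts kept their call throughout. Of 1083 values of uncalled contrasts, 27 were called and 42 had the opposite sign and were called in neither. The number of members called at 0.5 h was 0 to 1 when each library was left out, the 1 coming without 0 h replicate 1, where 3585 genes in all were called against 20 to 30 in the other 15 such fits, and from 24 to 48 h it was 2 to 4 (2 without 48 h replicate 1 or 24 h replicate 2) and 7 with only the libraries compared. From 48 to 72 h it was 2, AREG (-0.32) and NRP1 (0.42), with the GC trend removed, and 2 with the replicate block and the GC trend removed; the cause was not tested. The replicate block alone called 7 members at 24 h in place of 8 and moved no other count. Shares of all genes called with only the libraries compared, the GC trend removed or the replicate block are not given here. The main-fit shares do not apply to those fits, so their member counts stand without a background. The labels do not say what a replicate number shares, so the main fit did not pair the libraries. Deviations of same-numbered libraries correlated with r of -0.118 to 0.211 (28 pairs of time points, 14 over 0.1), which does not settle whether they are paired. ERBB3 lost 4 calls with length-scaled counts and gained 3, and EREG at 24 h and NRP1 from 0.5 to 1.5 h lost theirs in 22 of 28 alternatives each, as given above. Total-count scaling called VEGFB lower at 3 h (-0.50), 48 h (-0.44) and 72 h (-0.37). Ratios of mean TPM to 0 h had the same sign as CPM ratios in 46 of 49 cases. Of the 49, 17 moved by more than the SD of the log2 TPM ratios of same-numbered libraries. Depth limits TGFA, VEGFC and EGFR before 6 h, all near the floor of 3 reads.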
